A study of Mus musculus with 2 samples.

Results

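A list of 31 genes of the interferon response and of antigen presentation was followed in single cells of the Isl1-Cre lineage of mouse embryos at E13.5. They were listed by symbol (31 of 32285 genes in the files), and each symbol had 1 row. The control library came from Isl1-Cre;R26R-eYFP embryos and the mutant library from Isl1-Cre;R26R-eYFP;Pik3caH1047R embryos, which in addition express an activated form of the catalytic subunit of phosphoinositide 3-kinase wherever Cre has acted. Both groups carried the Isl1-Cre driver and the eYFP reporter, and each was 1 library made from 3 pooled eYFP+ embryos, from tissue above the liver, after sorting of eYFP+ cells. Isl1-Cre acts in pharyngeal and cardiac mesoderm and in other Isl1+ lineages, so the allele was not limited to vessels. The sorted cells held muscle, mesenchyme, epithelium, neurons and blood cells beside endothelium. Whether Cre had acted in each of these groups, such as the blood cells, was not tested. The colony had a mixed C57BL/6J and ICR background, and the alleles that each pool carried at the members were not determined, so differences in strain background and in the Pik3ca allele cannot be told apart. With 1 library per genotype no difference could be tested, so ratios are given with 95% intervals that cover counting error only.

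Interferons bind receptors that act through Janus kinases on transcription factors. Stat2 and Irf9 are parts of a complex that binds the interferon-stimulated response element (ISRE) in the promoters of antiviral genes, while Irf1 acts on MHC class I genes, and a further motif of interferon-induced promoters is the gamma-activated site (GAS). MHC class I molecules carry peptides that the immunoproteasome cuts and the Tap transporter delivers, on a heavy chain (H2-K1 or H2-D1 in the mouse) paired with B2m, and endothelium is among the tissues known for marked class I expression.

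After the limits on genes and mitochondrial transcripts, 2783 control cells and 3489 mutant cells remained, with 63153191 and 69717583 unique molecular identifiers (UMIs). Cells were grouped without using the members, and 9 groups with at least 50 cells in each library were compared. EC-like cells numbered 146 in the control library and 693 in the mutant library, and all 15 fixed endothelial markers were raised in them. They held 3185963 control and 13819940 mutant UMIs, so equal raw counts in these cells mean a lower mutant level. Another 7 groups were named from markers or by a leading gene: branchial muscle-like, mesenchyme-like, neuron-like, epithelium-like, cardiomyocyte-like and mesothelium-like cells, and a cluster led by Adh1. The ninth, a cluster led by Ccl4, mixed macrophage, erythroid and neutrophil genes and is called by its leading gene. Levels are counts per 1000000 UMIs of the group (CPM), and a member counted as lower or higher where the CPM differed by at least 1.5-fold, among genes with at least 20 UMIs over both libraries. The pools differed in sex: judged from Xist and genes of the Y chromosome, the female-like share was 95.5% in the control library and 33.6% in the mutant library, where 53.3% of cells were male-like. The libraries shared 12 cell barcodes among the kept cells.

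Promoters are shown for the 4 members with the largest falls in EC-like cells among those with at least 100 UMIs there (Irf9, Ifi35, H2-K1 and Ifitm3), and for Rsad2, the member that was highest in the mutant library by the same rule, because they allow the response elements to be set beside the opposite directions of the counts. Sequences are from RefSeq (GRCm38.p6) and run 5′ to 3′ over the 130 bases before the start site, with capitals for the core of interferon regulatory factor sites (AANNGAAA, either strand). Where the core lay after the start site, the first 30 transcribed bases follow.
Irf9 (chr14:55603855-55603984, plus strand): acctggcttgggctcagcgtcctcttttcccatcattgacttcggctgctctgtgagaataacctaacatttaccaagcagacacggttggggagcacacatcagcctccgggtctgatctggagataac
Ifi35 (chr11:101448282-101448411, plus strand): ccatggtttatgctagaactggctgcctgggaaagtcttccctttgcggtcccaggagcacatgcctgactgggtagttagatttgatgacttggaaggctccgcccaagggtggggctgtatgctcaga
Ifi35, after the start (chr11:101448412-101448441, plus strand): agcagaattcacagAAATGAAAgtggaagt
H2-K1 (chr17:34000348-34000477, minus strand): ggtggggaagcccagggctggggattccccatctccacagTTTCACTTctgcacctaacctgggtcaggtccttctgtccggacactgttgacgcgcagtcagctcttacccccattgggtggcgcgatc
Ifitm3 (chr7:141010745-141010874, minus strand): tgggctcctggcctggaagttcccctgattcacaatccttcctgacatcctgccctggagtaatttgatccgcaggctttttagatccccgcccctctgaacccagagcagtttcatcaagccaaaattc
Ifitm3, after the start (chr7:141010715-141010744, minus strand): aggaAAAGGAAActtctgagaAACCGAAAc
Rsad2 (chr12:26456453-26456582, minus strand): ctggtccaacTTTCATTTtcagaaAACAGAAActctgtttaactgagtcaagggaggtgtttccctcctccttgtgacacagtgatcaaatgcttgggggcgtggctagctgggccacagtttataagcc
The stretch of Rsad2 held 2 cores, 1 of them inside a full ISRE (searched on either strand as 2 copies of GAAA with any 2 bases between them), and that of H2-K1 held 1 core and no full ISRE. Ifitm3 had 2 cores just after the start site, both in full ISRE matches, and Ifi35 had 1 core there. The window of Irf9 held no core, ISRE or GAS letters, and its RefSeq start lies 414 bases from the start of the gene in GENCODE. Windows of 300 bases, from 250 bases before to 50 bases after the start site, were found for 26 of the 31 members (not for Usp18, Rtp4, Ifi27, Parp14 and Dhx58), and 11 of these genes had a full ISRE (Ifit1, Ifit3, Ifit3b, Isg15, Stat2, Bst2, Ifitm2, Ifitm3, Oas1a, Rsad2 and B2m). Over all 32851 mouse windows of the table, 3.44% held the ISRE, 23.9% the shorter core and 8.30% the GAS motif (TTCNNNGAA), while the core was found in 17 and the GAS motif in 7 of the 26 members. The full ISRE contains the core, so these shares overlap.

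In EC-like cells most of the measurable members were lower in the mutant library. The members were chosen with earlier results of these data known, so the shares below describe the list and test nothing. Of the 20 members with at least 20 UMIs, 13 were lower by at least 1.5-fold, where 15% of all 14134 genes were, and 1 was higher, where 15.2% of all genes were. The median log2 ratio of mutant over control was -0.87 over these members and -0.06 over all genes. Summed over all 31 members, the level went from 1487 CPM in the control library to 1145 CPM in the mutant library (log2 ratio -0.38, interval -0.42 to -0.33). The count of lower members was 8 of 17 without cells that held any macrophage-marker UMI and 7 of 13 after each cell was thinned to 5000 UMIs, with medians of -0.55 and -0.61. The first of these settings kept 70 of 146 control and 393 of 693 mutant cells. The median over all genes was -0.06 in both settings, and the share of all genes that were lower was not counted for them. Without the macrophage-marker cells Irf1 (-0.55), H2-D1 (-0.47) and Rtp4 (-0.22) were still measured but lay within 1.5-fold, while H2-K1 (-1.29) and Ifitm3 (-1.03) did not.

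**Figure D1:**
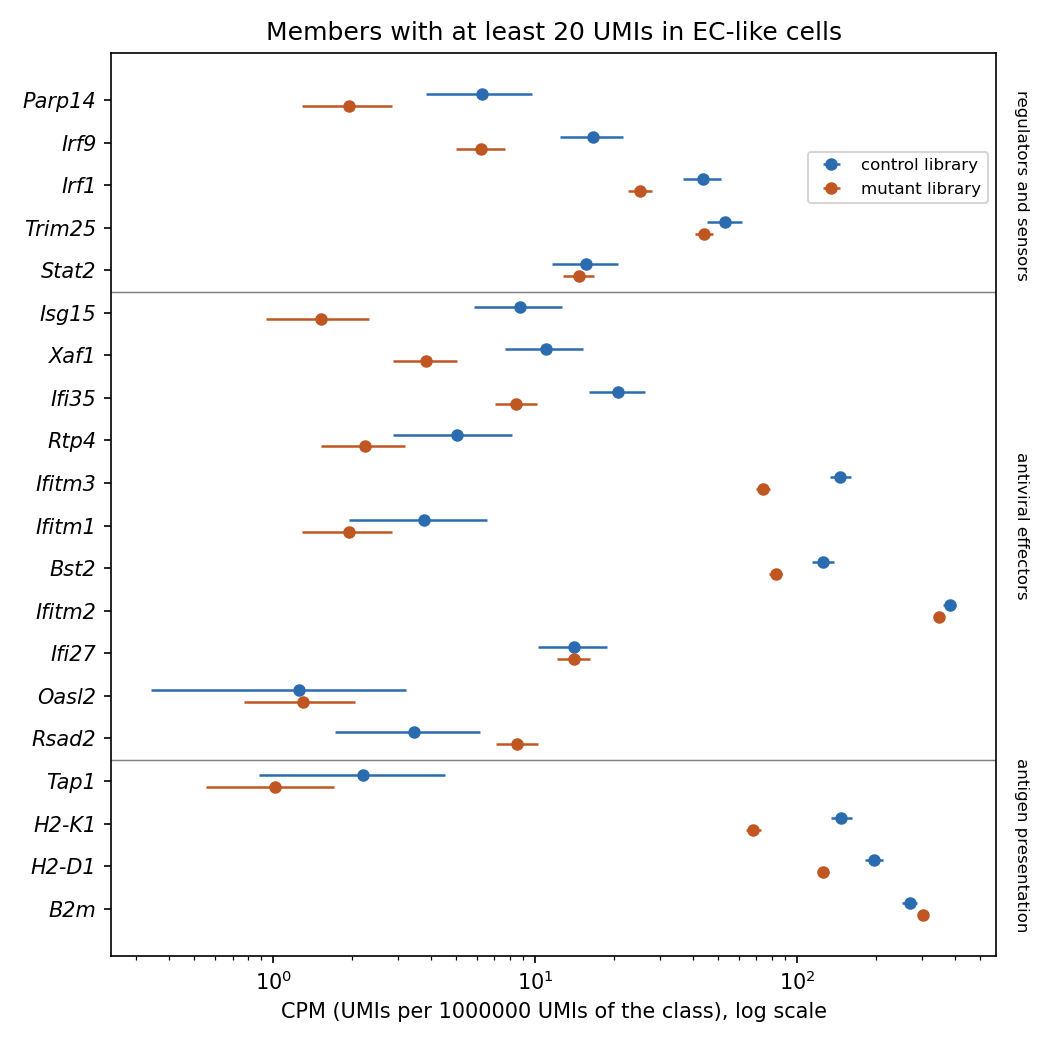
Levels of the 20 members with at least 20 UMIs in EC-like cells, in CPM on a log axis, for the control (blue) and mutant (orange) library, with exact Poisson 95% intervals for counting error and members grouped by role. H2-K1 sits at 147.8 CPM in the control and 68.2 CPM in the mutant library, whereas Rsad2 lies to the right in the mutant library and Stat2 and Ifi27 overlap.

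A few abundant genes made most of the fall. Members with a lower mutant level lost 383 CPM between them, of which H2-K1 made 20.8%, Ifitm3 18.8%, H2-D1 18.6% and Bst2 11.3%, or 69.6% for the 4 together. A further 6 members had a higher mutant level and gained 39.9 CPM, 34.0 CPM of it from B2m. Isg15, which had the lowest ratio, made 1.90% of the fall.

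The regulators of the response divided into those that fell and those that did not. Summed over the 8 regulators and sensors, the level was 139 CPM in the control and 93.7 CPM in the mutant library (log2 ratio -0.57, interval -0.73 to -0.41). Of the 5 measurable members 3 were lower, where 15% of all genes were. Irf9, the DNA-binding part of the complex that reads the ISRE, went from 16.6 to 6.22 CPM (53 and 86 UMIs, log2 ratio -1.42, interval -1.93 to -0.90). Irf1, a factor that acts on class I genes, went from 43.6 to 25.2 CPM (139 and 348 UMIs, -0.79, interval -1.08 to -0.50). With female-like mutant cells only, set against all control cells, Irf1 was at -0.33, with an interval that spans 0. Stat2, the partner of Irf9 in that complex, stood at 15.7 and 14.7 CPM (50 and 203 UMIs), an interval of -0.55 to 0.38 that spans 0. The ADP-ribosyltransferase Parp14 was at 6.28 and 1.95 CPM (20 and 27 UMIs, -1.68), and the ubiquitin ligase Trim25 at 53.0 and 44.3 CPM (169 and 612 UMIs, -0.26, inside the 1.5-fold limit). The other 3 regulators were scarce in EC-like cells. Irf7, the amplifier of interferon production, had 5 UMIs in each library (1.57 and 0.362 CPM). The RNA sensor Dhx58 had 6 and 8 (1.88 and 0.579 CPM). Usp18, which removes Isg15 from proteins, had 2 and 6 (0.628 and 0.434 CPM).

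Among the antiviral effectors, 7 of 11 measurable members were lower (15% of all genes) and 1 was higher (15.2%). Their sum went from 727 to 550 CPM (log2 ratio -0.40, interval -0.47 to -0.33). Isg15, the ubiquitin-like tag of the response, had 28 UMIs in 146 control cells and 21 UMIs in 693 mutant cells, or 8.79 and 1.52 CPM (-2.53, interval -3.42 to -1.66). It was found in 13 control cells, and 1 of these held 7 of the 28 UMIs, so this ratio rests on few cells. Xaf1, a pro-apoptotic protein, went from 11.0 to 3.83 CPM (35 and 53 UMIs, -1.52), and Ifi35, an interferon-induced leucine zipper protein, from 20.7 to 8.47 CPM (66 and 117 UMIs, -1.29). The chaperone Rtp4 went from 5.02 to 2.24 CPM (16 and 31 UMIs, -1.16), with all 3 intervals below 0.

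The Ifitm proteins, which block viral entry at membranes, did not move as a family. Ifitm3 went from 146.6 to 74.5 CPM (467 and 1030 UMIs, log2 ratio -0.98, interval -1.14 to -0.82), while its neighbour on chromosome 7, Ifitm2, was at 382.9 and 349.0 CPM (1220 and 4823 UMIs, -0.13). Ifitm1 had 12 and 27 UMIs, and its interval (-1.98 to 0.17) spans 0. These genes resemble each other, and the counting could divide reads between copies, so the contrast between them is uncertain. Bst2, the tetherin that holds budding virus at the membrane, went from 126.2 to 82.9 CPM (402 and 1145 UMIs, -0.61), just past the 1.5-fold limit.

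Rsad2, the antiviral enzyme viperin, ran against the other effectors in EC-like cells. It rose from 3.45 CPM to 8.54 CPM (11 and 118 UMIs, log2 ratio 1.31, interval 0.41 to 2.35). In the control library 4 cells held its UMIs, 1 of them with 6 of the 11, against 60 of the 693 mutant cells (2.74% and 8.66% of cells, where branchial muscle-like cells had 12.1% and 12.2%). In cells called G1 the direction turned, to -0.54. Ifi27, a small membrane protein of the response, was level at 14.12 and 14.04 CPM, and Oasl2, an oligoadenylate synthetase-like protein, at 1.26 and 1.30 CPM. The RNA-binding Ifit proteins were all but absent: Ifit1 had 0 and 1 UMIs, Ifit2 1 and 12, Ifit3b 0 and 1, and Ifit3 none in either library. At these depths the floor of 3 UMIs is 0.942 CPM in the control and 0.217 CPM in the mutant library. Ifit3 and Ifit3b, like Oas1a and its neighbours, are near copies whose reads the counting could divide or lose. The oligoadenylate synthetase Oas1a had 2 and 4 UMIs (0.628 and 0.289 CPM) and the secreted glycoprotein Lgals3bp 8 and 9 (2.51 and 0.651 CPM).

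The heavy chains of MHC class I fell and their light chain did not. H2-K1 (chr17:33996017-34000347) went from 147.8 to 68.2 CPM (471 and 943 UMIs, log2 ratio -1.12, interval -1.28 to -0.95), and H2-D1 (chr17:35262730-35267499) from 197.4 to 126.2 CPM (629 and 1744 UMIs, -0.65, interval -0.78 to -0.51). B2m (chr2:122147686-122153083) was at 269.9 CPM in the control and 304.0 CPM in the mutant library (860 and 4201 UMIs, 0.17, interval 0.07 to 0.28). This difference in B2m was within 1.5-fold, and it became -0.09 in G1 cells. The peptide transporter Tap1 had 7 and 14 UMIs (-1.12, with an interval that spans 0). The immunoproteasome subunits were scarce, with 8 and 10 UMIs for Psmb8 (2.51 and 0.724 CPM) and 3 and 8 for Psmb9 (0.942 and 0.579 CPM). H2-K1 and H2-D1 are close copies of each other and of other class I genes, so reads could be divided between them. Other H2 genes of chromosome 17 were nearly absent from the control library and present in the mutant library in several groups (H2-Ab1 had 0 and 70 UMIs in EC-like cells, H2-Q7 2 and 41), and whether the pools carried different H2 alleles, which could change how reads of H2-K1 and H2-D1 were counted, was not tested.

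The 4 members that made most of the fall were each found in a smaller share of mutant cells at equal depth. Cells of 1 library are not replicates of the genotype, so the intervals below cover the sampling of cells only and test no difference. With every cell thinned to 5000 UMIs, H2-K1 was found in 41.3% of 143 control cells (Clopper-Pearson interval 33.1% to 49.8%) and 26.2% of 661 mutant cells (22.9% to 29.7%). At full depth these shares were 70.5% and 52.7%. In branchial muscle-like cells, which had the lowest H2-K1 level, the thinned shares were 0.342% and 2.26%, given here for comparison. Whether the UMIs of members in those cells came from free RNA or from the cells themselves was not tested. Thinned shares for Ifitm3 were 43.4% and 25.6%, for Bst2 43.4% and 28.3%, and for Irf1 17.5% and 8.32%. At full depth they were 76.7% and 52.2% for Ifitm3, 65.8% and 58.4% for Bst2, and 35.6% and 22.7% for Irf1. Thinned shares in branchial muscle-like cells were 2.05% and 0.754% for Ifitm3, 2.17% and 2.76% for Bst2, and 6.96% and 4.65% for Irf1. H2-D1 was found in 45.5% of thinned control cells (37.1% to 54.0%) and 39.6% of thinned mutant cells (35.9% to 43.5%), against 80.1% and 68.0% at full depth. The thinned intervals of H2-D1 overlap, whereas those of H2-K1, Ifitm3 and Bst2 do not. Ifitm2 had thinned shares of 74.1% and 73.2%, and B2m ran the other way, at 58.0% and 68.1%. The median control cell had UMIs of 4 members after thinning and the median mutant cell of 3.

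Lower members were seen in both female-like and male-like mutant cells. The pool held 3 embryos, so sex and embryo cannot be told apart here, and the split is no repeat of the genotype. Over all control EC-like cells, 231 female-like mutant cells had 10 of 18 measurable members lower (15% of all genes) with a median of -0.73, and 380 male-like mutant cells had 11 of 18 lower (15.4% of all genes) with a median of -1.07. These 2 comparisons share their control cells. H2-K1 was at -0.94 and -1.22, Isg15 at -2.38 and -2.50 and Ifi35 at -1.13 and -1.42. Irf1 and Ifitm3 differed more between the sexes of the mutant pool, where Irf1 stood at -0.33 in female-like and -1.09 in male-like cells, and Ifitm3 at -0.66 and -1.25. The interval of Irf1 in female-like cells, -0.67 to 0.003, spans 0. Male-like over female-like mutant cells, the log2 ratio was -0.75 for Irf1 (interval -1.08 to -0.43) and -0.59 for Ifitm3 (-0.78 to -0.40). For comparison, all mutant over all control EC-like cells gave -0.79 and -0.98 for these genes. Most members differed less between male-like and female-like mutant cells, with a median of -0.16 over 18 members. Of these, 2 were lower by 1.5-fold, where 813 of all 13315 genes were. H2-K1 was at -0.28 in this comparison within the mutant library, Isg15 at -0.12, Irf9 at -0.21 and Bst2 at -0.21.

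**Figure D2:**
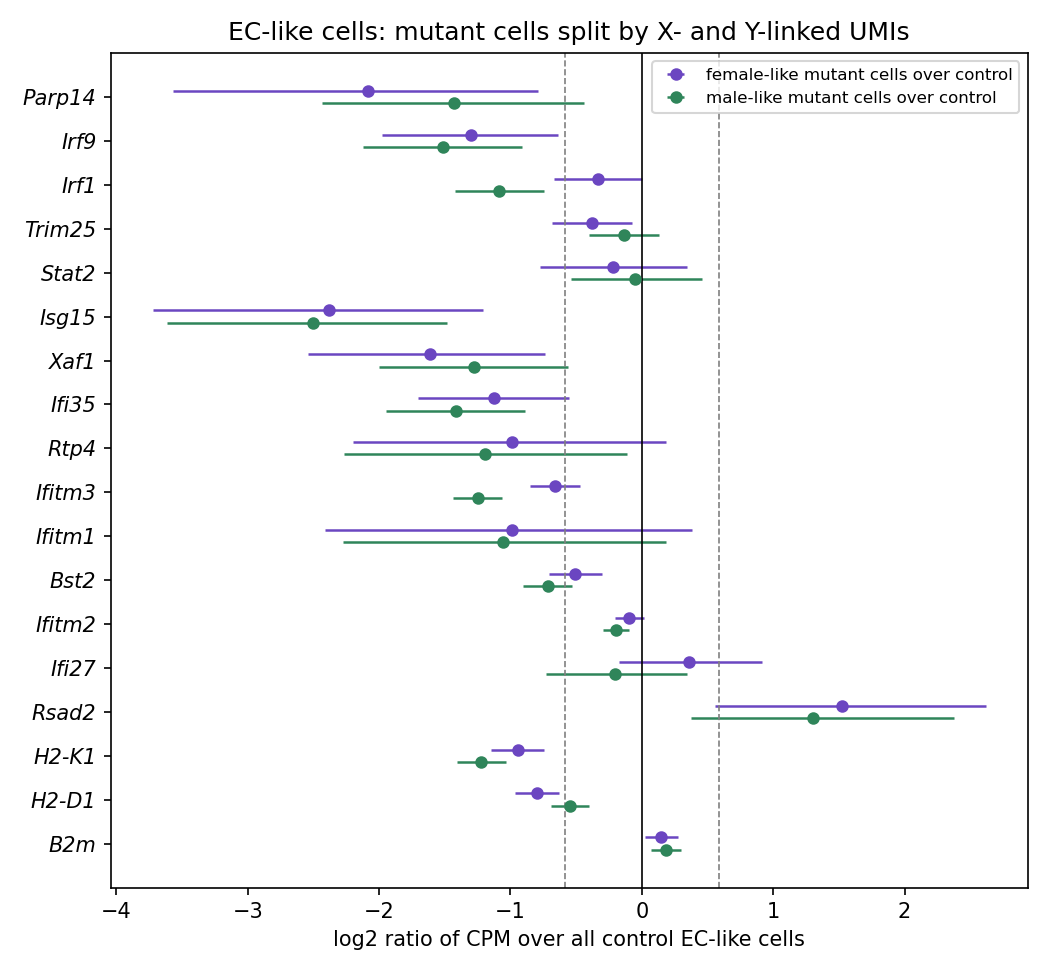
Log2 ratio of CPM in EC-like cells for female-like (purple) and male-like (green) mutant cells, each over all control EC-like cells, with 95% counting intervals; dashed lines mark 1.5-fold. Isg15, Irf9, Ifi35 and H2-K1 lie left of the lower line in both, whereas Irf1 does so in male-like cells.

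Both endothelial subclusters at a finer resolution showed lower members. In the subcluster led by Aplnr (128 control and 607 mutant cells) 13 of 19 members were lower, where 15.3% of all genes were, with a median of -0.86. In the subcluster led by Bmx, in which 8 of the 9 arterial markers were raised (31 and 143 cells), 7 of 12 were lower, where 17.1% of all genes were, with a median of -0.67. H2-K1 was at -0.96 in the first and -2.12 in the second (67 and 78 UMIs). Ifi27 differed in direction, at 0.02 in the first and -0.95 in the second (18 and 47 UMIs).

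Summed markers of other cell types also differed between the libraries in EC-like cells. Whether these UMIs came from other cells or from the endothelium itself was not tested. The 14 macrophage markers, of which 12 were detected in the control and 14 in the mutant library (C1qa and C1qc at 0 in the control library), summed to 66.2 CPM (interval 57.6 to 75.8) in control and 41.6 CPM (38.3 to 45.2) in mutant EC-like cells. These were 0.559% and 0.489% of their level in the macrophage-like subcluster of the same library. For the 4 members that made most of the fall, the EC-like level was a larger share of that subcluster's, at 50.9% and 35.1% for H2-K1, 45.6% and 35.7% for H2-D1, 55.3% and 49.3% for Bst2 and 19.3% and 21.3% for Ifitm3. For Isg15 it was 15.6% and 10.6%. The 10 mesenchyme markers summed to 231 and 119 CPM in EC-like cells, and their part in the result was not tested.

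In the other groups the falls were shared to different degrees, and by different members. Summed over all 31 members, the log2 ratio was -0.38 in EC-like cells and -0.60 in mesenchyme-like cells (1142 and 753 CPM). It was -0.68 in the cluster led by Ccl4, -0.77 in mesothelium-like and -0.98 in cardiomyocyte-like cells. In the cluster led by Adh1 it was -0.20, in branchial muscle-like cells -0.13 and in neuron-like cells 0.12. In epithelium-like cells it was 0.04, with an interval that spans 0. The sums ranked the groups otherwise than the medians. The median was -1.13 in the cluster led by Ccl4, where 20 of 28 members were lower (19.4% of all genes) and 1 was higher (11.4%). There it was -0.49 in G1 cells and 0.26, over 4 members, without cells that held a macrophage-marker UMI. In mesothelium-like cells the median was -1.27, with 7 of 11 lower (14.4%) and 0 higher (23.1%). It was -0.39 with classes from marker counts (8 of 17 lower) and -0.53 with at least 1 UMI (9 of 19), where the share of all genes was not counted. The marker classes held 332 control and 300 mutant mesothelium-like cells, against 70 and 67 from the clusters. In mesenchyme-like cells the median was -0.46, with 9 of 19 lower (14.8%) and 1 higher (11.6%). In the group of cardiomyocyte-like cells 3 of the 4 measurable members were lower (21.5% of all genes) and 1 was higher (13.6%), too few for the median of -0.92 to say much.

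In the other 4 groups the medians lay nearer to 0, though not under every setting. In branchial muscle-like cells 5 of 18 members were lower (10.1% of all genes) and 3 higher (16.7%), with a median of -0.16. In the cluster led by Adh1, 5 of 14 were lower (11.3%) and 2 higher (14.3%), with a median of -0.11. That median depended on the setting, at -0.88 without integration (8 of 14 lower), -0.73 after thinning (5 of 9), -0.62 with at least 100 UMIs (5 of 9) and -0.40 at resolution 0.8 (5 of 13), so whether the fall extends to this cluster is not settled. For these settings the share of all genes was not counted. In neuron-like cells 4 of 12 were lower (18.2%) and 0 higher (8.34%), with a median of -0.21. Summed over all 31 members, however, their level rose from 355 to 385 CPM (log2 ratio 0.12, interval 0.03 to 0.21). The median was 0.39 after thinning and 0.24 with at least 100 UMIs (0 of 5 lower in each). It was 0.11 with classes from marker counts (3 of 13) and below 0 in the remaining settings. The share of all genes was not counted for these either. Epithelium-like cells had 2 of 15 lower (12.2%) and 2 higher (10.8%), with a median of 0.11, so their share of lower members was near that of all genes.

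**Figure D3:**
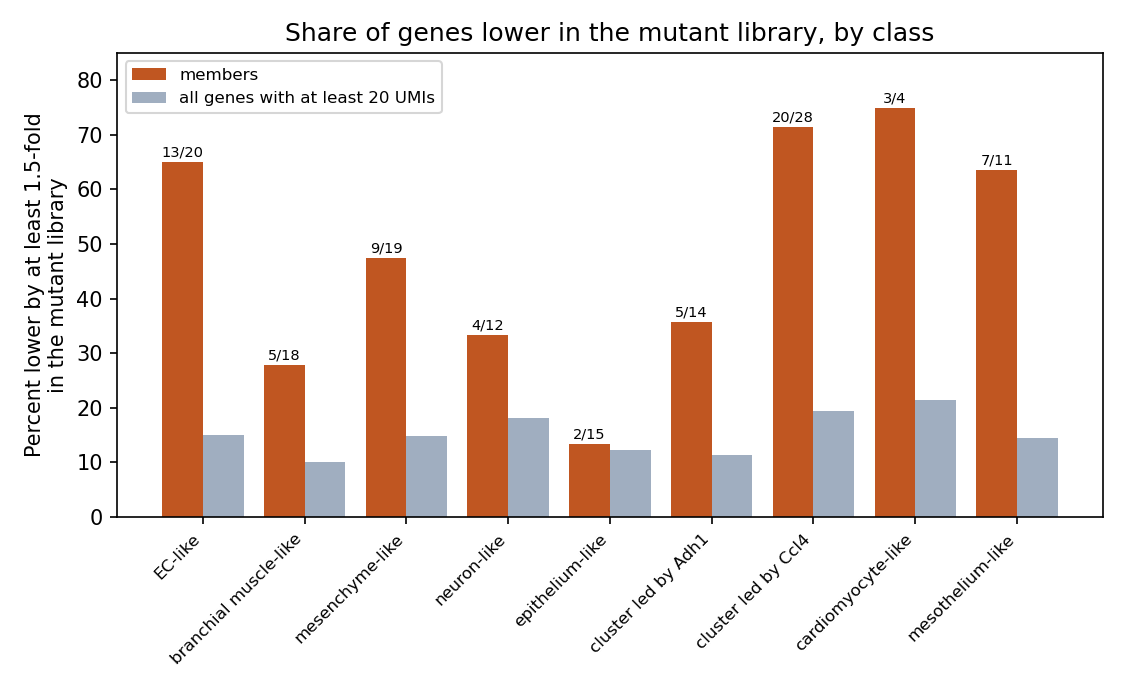
Percent of members (orange, with the count of lower members over members measured) and of all genes with at least 20 UMIs (grey) that were lower by at least 1.5-fold in the mutant library, for 9 cell groups. The share of members is 65.0% in EC-like and 71.4% in the cluster led by Ccl4, against 13.3% in epithelium-like cells.

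Ifitm3, Irf1 and Ifi27 were lower in many groups. Ifitm3 was lower in 7 of the 8 groups where it was measurable and higher within 1.5-fold in epithelium-like cells (91.5 and 114.9 CPM). Irf1 was below its control level in all 8 of its groups and past the limit in 6, among them mesenchyme-like cells (53.6 and 31.3 CPM, log2 ratio -0.78) and mesothelium-like cells (42.3 and 17.6 CPM, -1.27). Ifi27 was lower in 6 of 8 groups, from 47.2 to 12.7 CPM in mesenchyme-like cells (-1.89), from 26.3 to 12.4 CPM in the cluster led by Adh1 (-1.09) and from 9.47 to 2.16 CPM in branchial muscle-like cells (-2.13). The exceptions for Ifi27 were EC-like cells, where it was level, and epithelium-like cells (14 and 15 UMIs).

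Irf9 and the class I heavy chains were lower in fewer of their groups. Irf9 was lower in EC-like cells, in mesenchyme-like cells (9.46 and 4.42 CPM, log2 ratio -1.10) and in the cluster led by Ccl4 (25.5 and 11.0 CPM, -1.22), out of 7 groups. H2-K1 was lower in EC-like and mesothelium-like cells (76.4 and 32.5 CPM, -1.23) and in the cluster led by Ccl4 (263.2 and 122.6 CPM, -1.10). It was higher in 3 groups: branchial muscle-like cells, cardiomyocyte-like cells and the cluster led by Adh1. In branchial muscle-like cells it rose from 0.895 to 3.65 CPM (21 and 71 UMIs, 2.03, interval 1.31 to 2.80), and in the cluster led by Adh1 from 3.59 to 15.1 CPM (32 and 45 UMIs, 2.07, interval 1.38 to 2.77). All 3 groups had fewer than 100 UMIs of H2-K1 and were named after their values were seen. In cardiomyocyte-like cells the 6 antigen presentation members together had 46 and 124 UMIs, of which B2m made 40 and 95. The 15 endothelial markers rose as well, from 39.0 to 61.1 CPM in branchial muscle-like cells and from 80.6 to 241 CPM in the cluster led by Adh1. Their part in the H2-K1 rises was not tested. H2-D1 was lower in 4 of 8 groups (EC-like and mesothelium-like cells and the clusters led by Adh1 and Ccl4) and higher in branchial muscle-like cells (39 and 50 UMIs, 0.63, with an interval that spans 0). B2m stayed within 1.5-fold in 8 of 9 groups and was lower in cardiomyocyte-like cells (40 and 95 UMIs, -0.66).

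**Figure D4:**
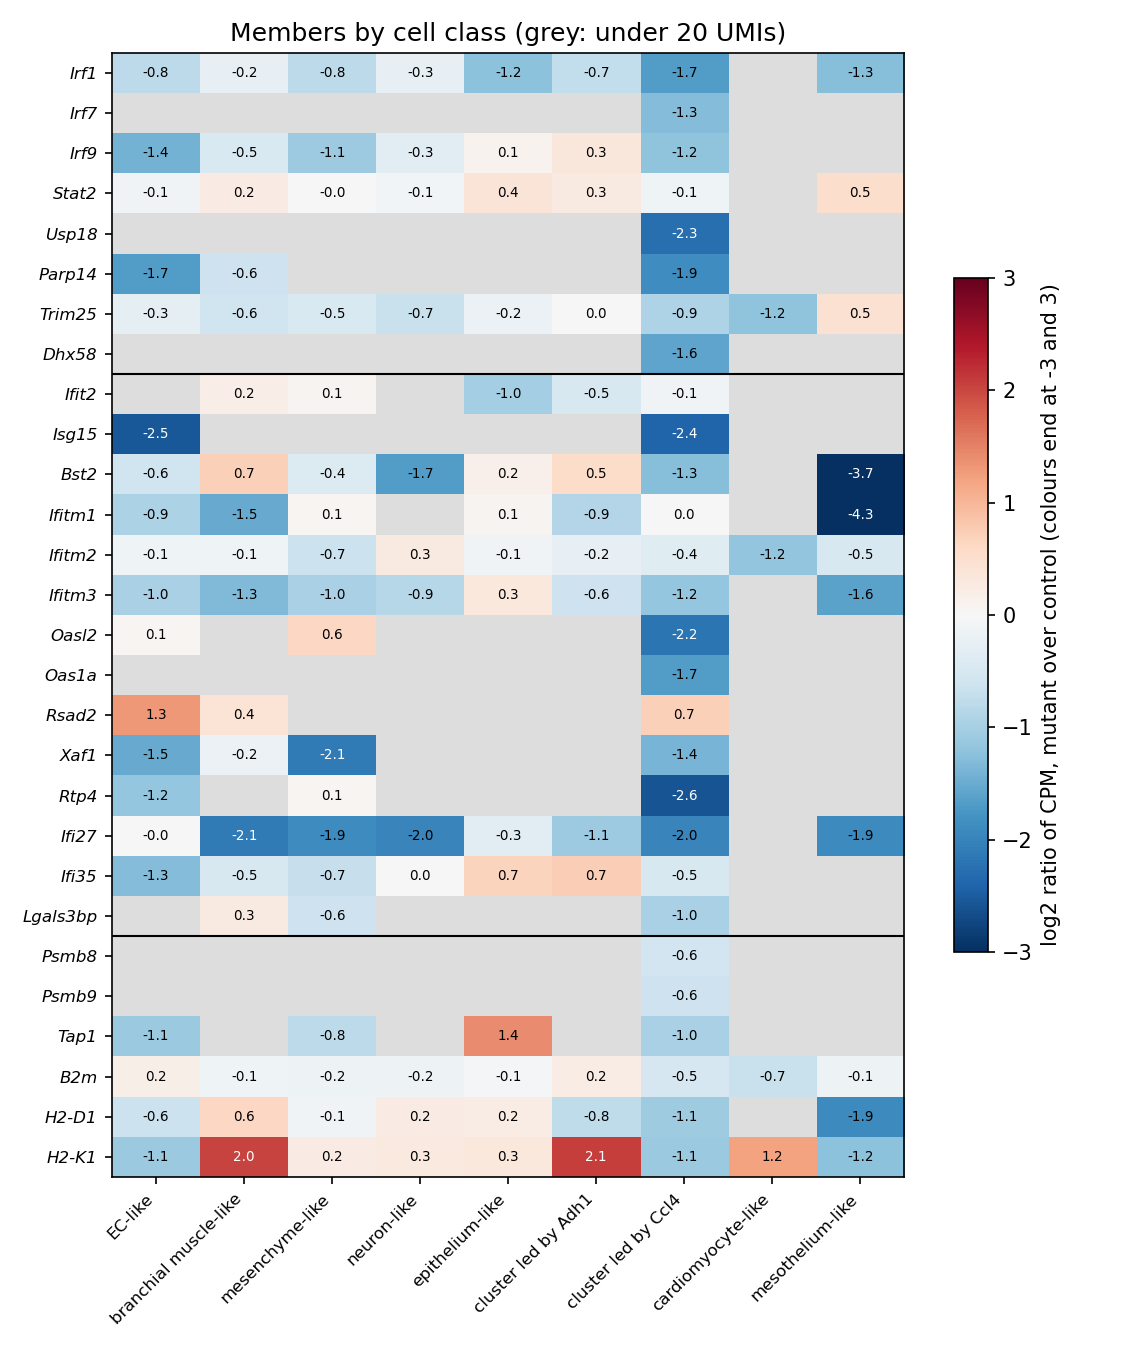
Log2 ratio of CPM, mutant over control, for the 28 members with at least 20 UMIs in at least 1 group (rows, by role from regulators at the top to antigen presentation at the bottom) in 9 cell groups (columns); blue is lower and red higher in the mutant library, and grey has under 20 UMIs. Ifitm3, Irf1 and Ifi27 form nearly unbroken blue rows, while H2-K1 is blue in EC-like cells, at -1.12, and red in branchial muscle-like cells, at 2.03.

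Mesothelium-like cells held the lowest single ratios. Bst2 went from 103.5 to 7.90 CPM (225 and 9 UMIs, log2 ratio -3.71, interval -4.86 to -2.76), and Ifitm1 from 34.5 to 1.75 CPM (75 and 2 UMIs, -4.30, interval -7.37 to -2.39). Ifitm3 went from 83.3 to 27.2 CPM (-1.61), and H2-D1 had 57 and 8 UMIs (-1.90). This group had 70 control and 67 mutant cells, with a median of 28114 and 14430 UMIs per cell. In mesenchyme-like cells Ifitm2 went from 763.5 to 485.7 CPM (-0.65), and there the 10 mesenchyme markers themselves summed to 11334 and 3509 CPM, so the cells of this group differed between the libraries in more than the members, and the part of that difference was not tested. Trim25 and Ifitm2 were lower in cardiomyocyte-like cells (11 and 18 UMIs, and 130 and 57.8 CPM), and Bst2 was lower in neuron-like cells (37 and 23 UMIs, -1.67).

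The cluster led by Ccl4 had the broadest measurable response. All 31 members had UMIs there, and it was the 1 of the 9 groups in which Irf7, Usp18, Dhx58, Oas1a, Psmb8 and Psmb9 could be compared. Isg15 went from 36.1 to 6.80 CPM (168 and 34 UMIs, log2 ratio -2.41), Rtp4 from 25.3 to 4.20 CPM (-2.59), Irf1 from 80.9 to 25.4 CPM (-1.67) and Irf7 from 22.8 to 9.20 CPM (-1.31). Parp14 was at -1.85, Oas1a at -1.67, Xaf1 at -1.39, Bst2 at -1.29, Ifitm3 at -1.16, H2-D1 at -1.07, Lgals3bp at -0.97 and Trim25 at -0.94. Psmb8 (140.6 and 93.8 CPM) lay within 1.5-fold, while Psmb9 (60.1 and 38.8 CPM, -0.63) and Tap1 (14.2 and 7.20 CPM, -0.98) lay past it, and Ifitm1 did not differ (515.7 and 516.6 CPM).

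The make-up of this cluster moved with these values. Macrophage markers summed to 6989 CPM in its control and 2698 CPM in its mutant cells, and erythroid markers to 3619 and 14048 CPM. Within the macrophage-like subcluster of the finer clustering (92 control and 41 mutant cells) 14 of 26 members were lower, where 18.7% of all genes were, with a median of -0.70, and within the erythroid-like subcluster (82 and 135 cells) 16 of 24 were lower, where 18.4% were, with a median of -0.84. Isg15 was at -1.98 and -1.61 in these, Irf1 at -1.98 and -1.32, and H2-K1 at -0.58 and -1.22, while B2m in the macrophage-like subcluster was at 881 and 876 CPM. Ifitm3 differed in direction, at -1.12 in the first and 0.72 in the second. The subclusters differed in make-up between the libraries as well. Macrophage markers summed to 11853 and 8514 CPM in the macrophage-like subcluster and to 1586 and 881 CPM in the erythroid-like one. The leading genes of the erythroid-like subcluster also included Cpa3, Mpo and Elane, which are not among the erythroid markers. The part of make-up in these falls was not tested.

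Single members also differed in groups whose median lay near 0. Tap1 rose in epithelium-like cells from 6.33 to 16.9 CPM (26 and 93 UMIs, log2 ratio 1.41, interval 0.77 to 2.10). Bst2 rose in branchial muscle-like cells from 4.43 to 7.30 CPM (0.72), where Ifitm1 went from 3.37 to 1.18 CPM (-1.51), and Ifitm1 went from 33.1 to 18.1 CPM in the cluster led by Adh1 (-0.87). In neuron-like cells H2-D1 was at 41.8 and 49.2 CPM and Ifitm2 at 209.6 and 253.6 CPM, both within 1.5-fold. Stat2 stayed within 1.5-fold in all 8 groups where it was measured, from -0.13 to 0.52. Ifit2, the 1 Ifit gene with 100 UMIs in any group, was at 9.75 and 7.03 CPM in the cluster led by Adh1, 3.84 and 4.42 CPM in branchial muscle-like cells and 6.90 and 7.32 CPM in mesenchyme-like cells, and Rsad2 was at 5.46 and 7.20 CPM in branchial muscle-like cells.

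The remaining members with at least 100 UMIs in a group mostly lay within 1.5-fold. In branchial muscle-like cells Irf1 was at 14.1 and 11.9 CPM, Irf9 at 2.69 and 1.95 CPM, Ifitm2 at 100.2 and 91.9 CPM and B2m at 43.5 and 39.5 CPM, while Trim25 was just past the limit (3.20 and 2.11 CPM, log2 ratio -0.60). In mesenchyme-like cells Ifitm3 was past it (59.4 and 30.3 CPM, -0.97), and Bst2 (-0.41), Ifitm1 (0.05), H2-D1 (-0.11), H2-K1 (0.24) and B2m (-0.16) were not. The level of H2-K1 there was 12.9 CPM in the control and 15.3 CPM in the mutant library, so the heavy chains did not follow Ifitm3.

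In epithelium-like cells H2-K1 (23.1 and 29.0 CPM), H2-D1 (24.8 and 29.2 CPM), B2m, Ifitm1, Ifitm2 and Trim25 all lay between -0.17 and 0.33. In the cluster led by Adh1, Irf1 (31.6 and 19.1 CPM, -0.73), Ifitm3 (83.5 and 54.2 CPM, -0.62) and H2-D1 (14.8 and 8.70 CPM, -0.77) were lower, and Ifitm2 (-0.25) and B2m (0.22) were not. H2-K1 and B2m were at 0.29 and -0.16 in neuron-like cells, and Ifitm2 and B2m at -0.47 and -0.15 in mesothelium-like cells. In the cluster led by Ccl4, Ifi27 was lower (27.0 and 6.80 CPM, -1.99), and Ifi35 (-0.48), B2m (-0.51), Ifitm2 (-0.36) and Stat2 (-0.13) lay within 1.5-fold.

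The wider pathway, taken as a whole, moved less than the members in EC-like cells. Both lists were chosen with earlier results of these data known, so this contrast is not a test. A list of 89 further genes had 53 with at least 20 UMIs, of which 11 were lower (15% of all genes) and 7 higher (15.2%), with a median of -0.23. As a whole its counts lay near those of all genes, but its parts differed. Of 15 other antigen presentation genes 1 was lower and 4 were higher, while the induced genes below were lower more often. The 11 interferon genes had 0 UMIs in the control and 3 UMIs in the mutant library. Of 8 measurable receptors and kinases 1 was lower, the receptor chain Il10rb (28.2 and 15.5 CPM, log2 ratio -0.87), while the interferon receptor chains Ifnar1 (68.4 and 48.3 CPM), Ifnar2 and Ifngr1 were at -0.50, -0.16 and 0.08.

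Of 16 other induced genes 7 were lower, where 15% of all genes were, and 2 higher, where 15.2% were, with a median of -0.41. Among the lower ones were the guanylate-binding protein Gbp7 (8.79 and 2.89 CPM, -1.60) and the GTPase Irgm1 (10.4 and 4.05 CPM, -1.35). The chemokine Cxcl10 was higher (2 and 29 UMIs, 1.74). In antigen presentation, the second transporter chain Tap2 was lower (9.10 and 2.60 CPM, -1.80), while the chaperone Calr was higher (298.8 and 514.2 CPM, 0.78). The constitutive proteasome subunits that the immunoproteasome replaces, Psmb5, Psmb6 and Psmb7, lay between 0.05 and 0.19. In the cluster led by Ccl4, 36 of 66 genes of the wider list were lower (19.4% of all genes) and 2 higher (11.4%), with a median of -0.76.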

How the data were processed

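Sorted eYFP+ cells were profiled with a 10x Genomics 5′ single-cell assay, 1 library per genotype. The deposited values are raw UMI counts per gene and called cell, which the authors made by alignment to GRCm38 (mm10) in Cell Ranger 7.1.0, per the submitters' processing notes. Whether introns were counted, and the annotation release, are not given in the sources used here. Kept cells had over 2000 but under 9000 genes and under 10% mitochondrial UMIs, the limits that the study states for these cells. Clusters came from Seurat 5.3.0 (R 4.3.3) after integration of both libraries (2000 variable genes, 30 components, resolution 0.3, 15 clusters), and 123 genes, among them the members and the wider list, were left out of the variable genes. A cluster was named "X-like" where at least 3 markers of a list were raised and no other list had more of the leading genes or was itself largely raised; otherwise it took the name of its leading gene. These names are rebuilt. Doublets were kept, since Scrublet (scanpy 1.11.5) marked 2 control and 5 mutant cells at its own threshold; an alternative removed the 100 and 150 highest-scoring cells.

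UMIs of a gene were summed per group and library and divided by the group's total. The 95% intervals are exact Poisson (CPM), conditional exact binomial (ratios) and Clopper-Pearson (shares of cells). A gene at 0 in 1 library enters ratios at 3 UMIs, and no ratio is given where both libraries have at most 3. The computation was tested on simulated data. Median UMIs per kept cell were 20412 in the control and 16839 in the mutant library. All members are named in EC-like cells, and in other groups those with at least 100 UMIs over both libraries; other values were chosen after they were seen. The members and lists were chosen with earlier results of these data known. Alternatives included other clusterings, thinning, G1 or female-like cells, and scaling by edgeR 4.0.16 (TMM).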

Additional observations from a re-analysis of the deposited data

Results flagged for a closer look

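Some members moved one way in EC-like cells and the other way in another group, with counting intervals on opposite sides of 0. The differences between groups were not tested, since each genotype had 1 library. H2-K1, at -1.12 in EC-like cells, was at 2.03 in branchial muscle-like cells and 2.07 in the cluster led by Adh1. Bst2, at -0.61 in EC-like cells, was at 0.72 in branchial muscle-like cells. The 15 endothelial markers were also higher in the mutant library in these groups. They summed to 39.0 and 61.1 CPM in branchial muscle-like cells and 80.6 and 241 CPM in the cluster led by Adh1. Whether endothelial RNA made part of these rises was not tested. Ifitm3, at -0.98 in EC-like cells, was at 0.33 in epithelium-like cells, and Ifitm2, at -0.13, was at 0.28 in neuron-like cells. The EC-like value of Ifitm2 depended on the scaling, at -0.02 with TMM and -0.03 with median-ratio scaling. B2m, at 0.17 in EC-like cells, was at -0.14 in branchial muscle-like cells, -0.16 in mesenchyme-like cells, -0.51 in the cluster led by Ccl4 and -0.66 in cardiomyocyte-like cells. Its interval in branchial muscle-like cells ended at -0.0009, and its EC-like value was -0.09 in G1 cells.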

How the results depend on the processing

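No paired analysis was possible because each genotype had 1 library. Over 13 results and 14 settings, 157 of 173 alternatives stayed within the limits set for a change, 15 moved and 1 reversed. Counts could change by 1.5-fold, and sums within their counting interval. For a median the limits were the medians of the members' lower and upper interval ends, which are wide. Moves from -0.21 to 0.39 in neuron-like cells and from -0.11 to -0.73 in the cluster led by Adh1 both stayed within them. The tally therefore does not show that the medians are stable. The median over members in EC-like cells stayed below 0 in all 14, from -0.97 (G1 cells) to -0.55 (without cells with a macrophage-marker UMI). The count of lower members in EC-like cells, 13 in the report, was 7 after thinning to 5000 UMIs, 8 without cells with a macrophage-marker UMI and 7 with at least 100 UMIs, out of 13, 17 and 13 members compared. It was 11 of the same number of members (20) with TMM scaling, median-ratio scaling and the mean over cells. The share of all genes that were lower was not counted under these settings. The summed effectors, -0.40 in the report, came to -0.29 in female-like cells, -0.59 in G1 cells, -0.29 with TMM scaling and -0.30 with median-ratio scaling. The summed antigen presentation genes, -0.31 in the report, came to -0.41 after thinning, -0.60 in G1 cells, -0.19 with TMM and -0.21 with median-ratio scaling. TMM moved the median of all genes in EC-like cells from -0.06 to 0.05. In G1 cells Ifitm1 (0.43) and Rsad2 (-0.54) reversed, and the cause was not tested. The median was -0.88 without integration in the cluster led by Adh1, and in mesothelium-like cells -0.39 with classes from marker counts and -0.53 with at least 1 UMI. The marker classes held 332 control and 300 mutant mesothelium-like cells, against 70 and 67 from the clusters. In the cluster led by Ccl4 the median was -0.49 in G1 cells and 0.26 without cells with a macrophage-marker UMI. There 4 members and only 3 control and 18 mutant cells were left. Classes from marker counts hold neither cluster, and resolution 0.8 has none led by Ccl4. Members with under 100 UMIs have wide intervals, and differences between embryos could not be told apart from those between genotypes.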

Other observations

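The class II chain H2-Ab1, which presents peptides on professional antigen-presenting cells, had 0 UMIs in the control library and UMIs in the mutant library in several groups that are not blood cells. In EC-like cells it had 70 mutant UMIs, a CPM 5.38-fold that of the floor of 3 UMIs at which a control count of 0 enters. Folds over this floor are not lower limits. H2-Ab1 had 51 mutant UMIs in branchial muscle-like cells (20.5-fold over the floor), 55 in mesenchyme-like cells (23.5-fold) and 33 in cardiomyocyte-like cells (2.93-fold). In the cluster led by Ccl4 the order was the opposite, with 207 control and 86 mutant UMIs (log2 ratio -1.37, interval -1.75 to -0.999).

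Class I genes outside H2-K1 and H2-D1 were higher in the mutant library in some groups. H2-Q7 had 2 control and 41 mutant UMIs in EC-like cells (log2 ratio 2.24, interval 0.30 to 5.33) and 2 and 48 in mesenchyme-like cells (4.94, interval 3.01 to 8.03). H2-T23 had 6 and 35 UMIs in mesenchyme-like cells (2.90), 13 and 74 in epithelium-like cells (2.08) and 12 and 78 in the cluster led by Ccl4 (2.60). The nucleic acid sensor Ifi203 ran the other way in EC-like cells, with 38 control and 4 mutant UMIs (-5.36, interval -7.31 to -3.89). These are close copies of neighbouring genes, so the counting may divide or lose their reads. The mice had a mixed C57BL/6J and ICR background, and differences in the alleles carried by the pools cannot be told apart from the effect of the genotype. All were chosen after their values were seen.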
